A study of Mus musculus with 6 samples.

Results

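The unfolded protein response was followed through 10 genes in macrophages of obese mouse fat: Hspa5, Hsp90b1, Calr, Pdia3, Pdia4, Xbp1, Atf4, Ddit3, Herpud1 and Dnajb9. They were taken by symbol from a table of 57180 Ensembl mouse genes, in which 11 IDs carry these symbols. The extra ID is a second Ddit3 entry of 105 exonic bases, with 2 counts in all over the 6 libraries; it did not pass the low-count filter and was not tested. All 10 genes passed the filter, as did 23055 genes of the table. The series sequenced bulk RNA of adipose tissue macrophages that had been sorted on F4/80 and CD11b, taken from white fat of wild-type (WT) mice fed a high-fat diet, HFD for short; the sort is named in the design text, while the protocol speaks of RNA from tissue. The 3 libraries labelled HFD+MGIG came from mice on that diet given magnesium isoglycyrrhizinate (MGIG), the magnesium salt of an isomer of the liquorice compound glycyrrhizic acid, and the 3 labelled HFD came from mice on the diet without it. Both groups thus share the genotype and the diet. The labels used here give no dose, duration, age or sex, and do not say whether each library is a separate animal. A p-value below thus reflects the scatter among these 6 libraries, part of which may be technical.

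The unfolded protein response matches the folding capacity of the endoplasmic reticulum (ER) to its load of secretory and membrane proteins. The sensors IRE1, PERK and ATF6 lie in the ER membrane and are held inactive by the chaperone BiP, the product of Hspa5. IRE1 splices Xbp1 mRNA so that it encodes an active transcription factor, PERK slows translation while favouring that of Atf4, which in turn induces Ddit3 (CHOP), and ATF6 is cut in the Golgi to release a transcription factor. In macrophages of obese fat the response is studied as a link between lipid load and inflammation. Counts per gene do not separate spliced from unspliced Xbp1, nor ATF4 protein from Atf4 mRNA, so only transcript levels are described here.

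Some of the 10 promoters hold letters of elements through which the response is known to act, while no searched element was found in those of Xbp1, Atf4 and Dnajb9. RefSeq promoter windows of 300 bases (250 before the start site to 50 after it, GRCm38.p6) were matched by symbol for 10 of the 10 genes. The ER stress response element, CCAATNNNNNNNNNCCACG on either strand, binds ATF6 together with NF-Y, and its exact letters were found in Hspa5, Hsp90b1 and Calr, 3 of 10 promoters, and in 0.119% of all 32851 promoter windows. The related element of the same kind, ATTGG and CCACG with 1 base between them, was found in Herpud1 and in 0.0365% of all windows. The stretches around these matches, 5′ to 3′ on the strand of the gene with the match in capitals, are shown because they are known entry points of the response.
Hspa5 (chr2:34771995-34772073, plus strand): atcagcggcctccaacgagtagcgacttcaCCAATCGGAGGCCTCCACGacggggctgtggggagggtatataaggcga
Hsp90b1 (chr10:86705503-86705686, minus strand): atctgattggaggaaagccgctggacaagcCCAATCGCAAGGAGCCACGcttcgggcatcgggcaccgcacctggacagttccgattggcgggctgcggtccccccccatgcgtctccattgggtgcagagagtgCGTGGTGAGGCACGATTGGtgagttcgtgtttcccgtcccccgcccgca
Calr (chr8:84847045-84847123, minus strand): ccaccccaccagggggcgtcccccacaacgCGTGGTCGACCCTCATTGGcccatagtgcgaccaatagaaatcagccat
Herpud1 (chr8:94386347-94386417, plus strand): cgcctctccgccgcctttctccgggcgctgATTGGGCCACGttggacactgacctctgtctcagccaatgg

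Hspa5 holds the element in the sense orientation and Calr in the antisense orientation. Hsp90b1 holds it in both orientations. With 1 letter allowed to differ, the ER stress response element was found in 7 of the 10 promoters, adding Pdia3, Pdia4, Ddit3 and Herpud1, and in 1.5% of all windows. The core TGATGNAA of the site that ATF4 and its C/EBP partners bind was found in Herpud1 alone among the 10, and in 3.97% of all windows. The core TGACGTGG, which XBP1 binds among other elements, was found in none of the 10 and in 0.676% of all windows. A match is a description of the letters and not a measured binding site, and these windows leave out more distant elements.

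The libraries differed in depth and in make-up, and this bears on every level below. Total counts ranged from 2214456 to 4904302 in HFD+MGIG and from 14437605 to 16740417 in HFD. Olfactory, vomeronasal and taste receptor, keratin-associated and beta-defensin genes, 1598 genes called silent families here as genes of sensory and epithelial tissues, took 2.94% to 6.42% of counts in HFD+MGIG and 0.0624% to 0.280% in HFD. Protein-coding genes took 62.4% to 82.7% in HFD+MGIG and 95.0% to 96.1% in HFD, with the extreme value in HFD+MGIG 2 for both measures. Levels were therefore read on 2 scales. The first is CPM, the count scaled to the library total, with fold changes scaled by TMM factors over all tested genes. The second is set by 2606 background-limited genes, protein-coding genes with at least 2 exon blocks. Their background bound was at most 0.25 of their mean level, both taken over all 6 libraries. The bound is the count per kb that 90% of silent-family genes stay under, times exon length. It is a high value and not a typical one. The bound was 5.23, 9.41 and 4.57 CPM per kb in HFD+MGIG 1, 2 and 3, while the median over silent-family genes was 1.32, 2.40 and 1.32. A level under the bound can thus still lie above the typical background. Of the 10 genes, 9 belong to the background-limited set. Among them Ddit3 passes the limit through the HFD libraries, since its background bound was 40.4% of its level within HFD+MGIG. Atf4 has 1 exon block in the annotation and does not belong to the set.

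All 10 genes had lower mean CPM with MGIG, by 1.38-fold for Ddit3 to 2.06-fold for Calr, and the groups did not overlap for 9 of them. Over all tested genes 23.7% were lower without overlap, and over the background-limited genes 68.1% were. In edgeR's quasi-likelihood test with Benjamini-Hochberg adjustment, 3 of the 10 passed the threshold of 0.05, all lower (Hsp90b1, Calr and Herpud1), and 5 had an unadjusted p under 0.05. In that fit 17.8% of all tested genes were called lower and 42.9% higher, while of the background-limited genes 43.1% were called lower and 2.11% higher. The share of 3 in 10 lies between 17.8% and 43.1%. The summed level of the 10 genes was 4244, 1885 and 3588 CPM in HFD+MGIG 1, 2 and 3, against 5119, 5566 and 6029 CPM in HFD 1, 2 and 3.

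**Figure D1:**
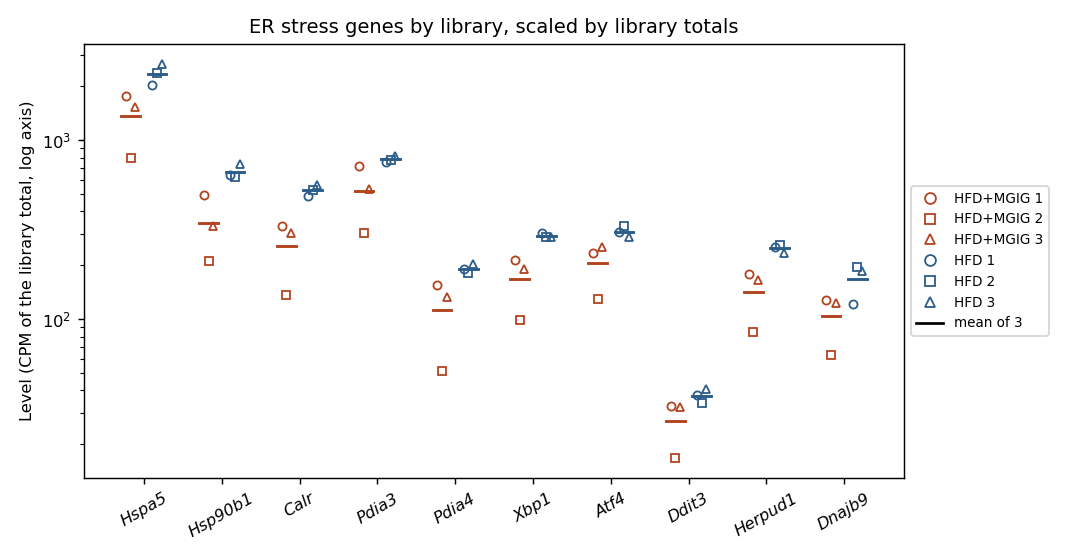
Level of each of the 10 genes in every library, in CPM of the library total on a log axis; brown-red symbols are HFD+MGIG libraries, blue symbols HFD libraries, and bars the means of 3. HFD+MGIG 2 is the lowest library for all 10 genes, and the groups overlap for Dnajb9 alone.

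HFD+MGIG 2 had the lowest CPM of the 6 libraries for 10 of the 10 genes, as it had for 90.8% of the background-limited genes. The number of genes called depended on it: without HFD+MGIG 2, edgeR called 9 of 10 lower, all but Ddit3, with log2 fold changes of −0.96 to −0.43 over the 10 genes. In that fit 22.6% of all tested genes were called lower and 40.3% higher, and of the background-limited genes 68.5% lower and 2.34% higher. Leaving out HFD 1, HFD 2, HFD 3 or HFD+MGIG 3 gave 0 edgeR calls among the 10, where 12%, 10.4%, 8.31% and 10.6% of all tested genes were called lower. Leaving out HFD+MGIG 1 gave 6 of the 10, where 22.2% of all tested genes were called lower. DESeq2 called 9 of the 10 lower, beside 14.1% of all genes it tested lower and 46.1% higher, and 65.5% and 2.26% of the background-limited genes. Limma voom called 10 of the 10 lower, beside 29.8% of all tested genes lower and 46.7% higher, and 81.3% and 2.53% of the background-limited genes.

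Hspa5 encodes BiP, the Hsp70 chaperone of the ER lumen (ENSMUSG00000026864, mm10 chromosome 2, 34771970 to 34777547). It stood at 1761, 792 and 1525 CPM in HFD+MGIG 1, 2 and 3, against 2022, 2361 and 2674 CPM in HFD 1, 2 and 3. All HFD+MGIG libraries were below all HFD libraries. The fold change was −1.07 on the log2 scale (SE 0.547, edgeR adjusted p = 0.103), which did not pass the threshold. On the scale of the background-limited genes Hspa5 had 1753, 1512 and 1711 CPM in HFD+MGIG against 1561, 1840 and 2085 CPM in HFD. The groups overlapped on that scale, and the log2 fold change was −0.14 (SE 0.155, edgeR adjusted p = 0.597), with an interval of 2 SE on each side from −0.45 to 0.17.

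Hsp90b1 encodes GRP94, the Hsp90 of the ER, which folds Toll-like receptors and integrins (ENSMUSG00000020048, chromosome 10, 86690209 to 86705509). Its levels were 492, 211 and 332 CPM in HFD+MGIG 1, 2 and 3, against 637, 620 and 738 CPM in HFD 1, 2 and 3. The groups were apart, and Hsp90b1 was lower in edgeR's test (log2 fold change −1.22, SE 0.497, edgeR adjusted p = 0.0491). It no longer passed when any HFD library or HFD+MGIG 3 was left out, with edgeR adjusted p = 0.0831 to 0.153. On the background-limited scale the highest HFD+MGIG library, with 490 CPM, lay above the lowest HFD library, with 484 CPM. The log2 fold change there was −0.29 (SE 0.154, edgeR adjusted p = 0.273). Of its 4032 exonic bases 415 overlap the pseudogene 1810014B01Rik on the opposite strand, and since no strand is stated for the counts, it is not known which of the pair those reads came from.

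Calr encodes calreticulin, the lectin chaperone that binds monoglucosylated glycoproteins and calcium (ENSMUSG00000003814, chromosome 8, 84841850 to 84846934). It had the lowest fold change of the 10. Its levels were 330, 136 and 301 CPM in HFD+MGIG 1, 2 and 3, against 489, 528 and 563 CPM in HFD 1, 2 and 3 (log2 fold change −1.32, SE 0.498, edgeR adjusted p = 0.0371). Here too it no longer passed without any 1 of the HFD libraries or HFD+MGIG 3, with edgeR adjusted p = 0.0591 to 0.113. Calr also kept the groups apart on the background-limited scale, at 328, 259 and 338 CPM in HFD+MGIG against 378, 411 and 439 CPM in HFD. There the log2 fold change was −0.40 (SE 0.147) and did not pass the threshold (unadjusted p = 0.0233, edgeR adjusted p = 0.120), the smallest p of the 9 genes on that scale. Reads were scarce on the processed pseudogene Calr-ps, which had 3 counts in HFD+MGIG 2 and 0 in the other 5 libraries.

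Pdia3 (ERp57) and Pdia4 (ERp72) encode disulfide isomerases of the ER, the first of which works with calreticulin and in MHC class I loading. Pdia3 had 718, 302 and 534 CPM in HFD+MGIG 1, 2 and 3, against 758, 771 and 814 CPM in HFD 1, 2 and 3 (log2 fold change −0.86, SE 0.504, edgeR adjusted p = 0.148). Its groups were apart, with HFD+MGIG 1 close to HFD 1. Its sign was the other way on the background-limited scale, with 715, 577 and 598 CPM in HFD+MGIG against 585, 601 and 634 CPM in HFD. The groups overlapped there, and the difference was 0.06 in log2 (SE 0.141, edgeR adjusted p = 0.828). Pdia4 had 156, 51.0 and 133 CPM in HFD+MGIG 1, 2 and 3, against 190, 180 and 203 CPM in HFD 1, 2 and 3 (log2 fold change −1.01, SE 0.476, edgeR adjusted p = 0.0805). After scaling by the background-limited genes Pdia4 was low in HFD+MGIG 2 alone, at 97.4 CPM, while the other 5 libraries lay between 140 and 159 CPM. Its log2 fold change there was −0.13 (SE 0.181, edgeR adjusted p = 0.665).

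Xbp1, the transcription factor of the IRE1 arm, had 215, 99.3 and 191 CPM in HFD+MGIG 1, 2 and 3, against 301, 286 and 287 CPM in HFD 1, 2 and 3. The groups were apart, the HFD libraries were close together, and the log2 fold change was −1.06 (SE 0.452, edgeR adjusted p = 0.0576). Scaled by the background-limited genes, Xbp1 had 214, 190 and 215 CPM in HFD+MGIG against 232, 223 and 224 CPM in HFD. The groups stayed apart by a small margin, and the log2 fold change was −0.13 (SE 0.12, edgeR adjusted p = 0.522). Over the background-limited genes 17% were lower without overlap on this scale and 16.8% higher, beside Calr and Xbp1 as the lower and Ddit3 as the higher of the 10 genes.

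Atf4, the transcription factor whose translation PERK and the other eIF2-alpha kinases favour, had 234, 129 and 252 CPM in HFD+MGIG 1, 2 and 3, against 307, 330 and 287 CPM in HFD 1, 2 and 3 (log2 fold change −0.87, SE 0.447, edgeR adjusted p = 0.104). The groups were apart on this scale. With the factors of the background-limited genes applied to all tested genes, Atf4 had 233, 247 and 282 CPM in HFD+MGIG against 237, 257 and 224 CPM in HFD, and the groups overlapped. Its difference there was 0.08 in log2 (SE 0.145, edgeR adjusted p = 0.658). Under those factors 0 of the 10 genes were called in edgeR and 1 had an unadjusted p under 0.05, beside 1.82% of all tested genes called lower and 50.1% higher.

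Ddit3 encodes CHOP, the transcription factor of prolonged ER stress that promotes cell death, and was the least abundant of the 10. It had 32.5, 16.7 and 32.2 CPM in HFD+MGIG 1, 2 and 3, against 37.6, 33.9 and 40.7 CPM in HFD 1, 2 and 3 (log2 fold change −0.73, SE 0.337, edgeR adjusted p = 0.0769). The HFD+MGIG libraries were all below the HFD libraries in CPM, and all above them on the background-limited scale, at 32.4, 31.9 and 36.1 CPM in HFD+MGIG against 29.0, 26.5 and 31.8 CPM in HFD. The log2 fold change on that scale was 0.21 (SE 0.164, edgeR adjusted p = 0.459), so the direction of Ddit3 differed between the scales and neither value passed the threshold. Neither scale subtracts background. The background bound, a high value and not a typical one, was 1.99% of the HFD+MGIG level for Hspa5. For Ddit3 in HFD+MGIG 2 the bound was 16.1 CPM, close to the measured 16.7 CPM. The bound there rests on 9.41 CPM per kb, while the median over silent-family genes was 2.40 CPM per kb. Of its 1713 exonic bases 68 overlap those of Mars on the opposite strand.

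Herpud1, an ER membrane protein of the degradation complex, and Dnajb9 (ERdj4), a co-chaperone of BiP that dampens IRE1, are targets of the response. Herpud1 had 178, 84.9 and 165 CPM in HFD+MGIG 1, 2 and 3, against 254, 260 and 235 CPM in HFD 1, 2 and 3 (log2 fold change −1.08, SE 0.443, edgeR adjusted p = 0.0496). Its groups were apart, and it missed the threshold when any HFD library or HFD+MGIG 3 was left out, with edgeR adjusted p = 0.0919 to 0.123. Its groups just overlapped on the background-limited scale, with 185 CPM in HFD+MGIG 3 and 184 CPM in HFD 3, and the log2 fold change was −0.15 (SE 0.123, edgeR adjusted p = 0.487). Dnajb9 had 128, 63.2 and 123 CPM in HFD+MGIG 1, 2 and 3, against 122, 196 and 186 CPM in HFD 1, 2 and 3 (log2 fold change −0.98, SE 0.443, edgeR adjusted p = 0.0715). HFD 1 lay among the HFD+MGIG libraries, so the groups overlapped in CPM for Dnajb9, unlike the other 9 genes. Its log2 fold change on the background-limited scale was −0.02 (SE 0.193, edgeR adjusted p = 0.953).

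**Figure D2:**
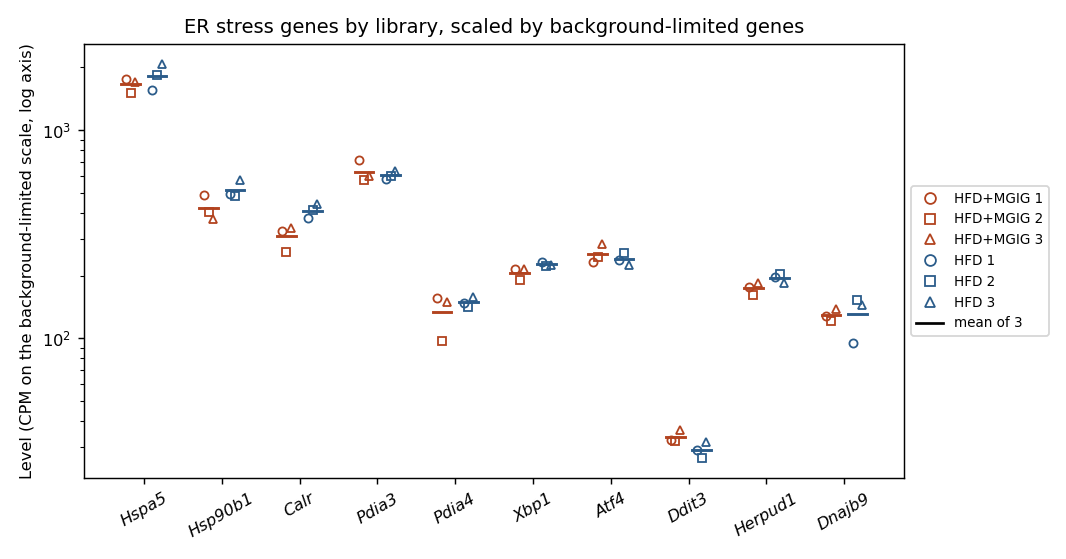
Level of each of the 10 genes in every library after scaling by the background-limited genes, in CPM on a log axis; symbols as in the plot of library totals, with brown-red for HFD+MGIG and blue for HFD. The groups overlap for 7 of the 10 genes, Calr and Xbp1 are lower and Ddit3 higher in every HFD+MGIG library.

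On the background-limited scale 0 of the 9 genes passed the threshold in edgeR, 1 (Calr) had an unadjusted p under 0.05, and DESeq2 also called 0. There 6.25% of the 2606 genes were called lower and 4.45% higher in edgeR, and 8.79% and 7.14% in DESeq2. The 9 fold changes ran from −0.40 to 0.21, with a median of −0.13 beside a median of 0.03 for all background-limited genes. The 25th and 75th percentiles of those genes were −0.21 and 0.25, and 7 of the 9 fell between them, Calr and Hsp90b1 lying below. The median of the background-limited genes was −0.91 in the fit over all tested genes, and read against it the 10 genes lay between −0.40 for Calr and 0.19 for Ddit3. Summed over the 10 genes, the level on this scale was 3949 ± 319 CPM in HFD+MGIG and 4330 ± 375 CPM in HFD (mean ± SD, n = 3 each), and the groups overlapped.

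**Figure D3:**
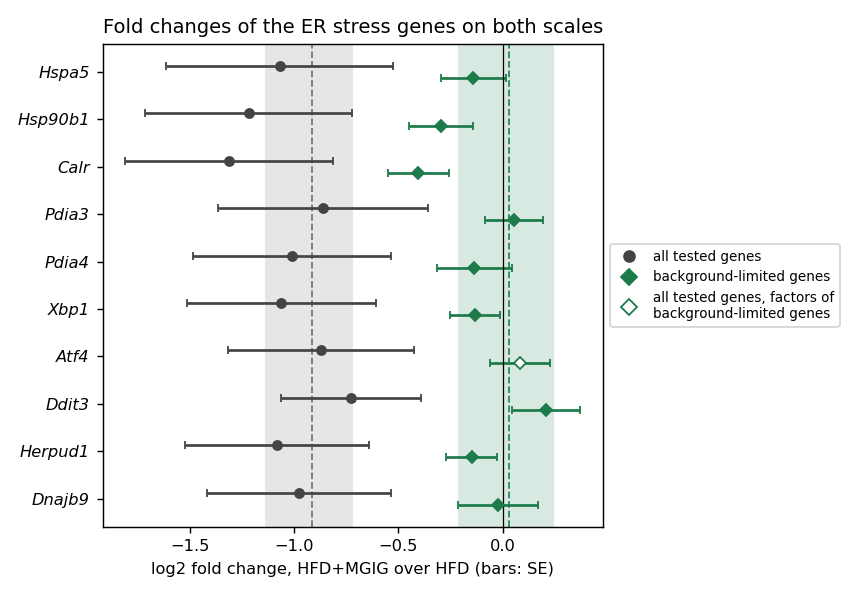
Log2 fold changes of HFD+MGIG over HFD with their SE for the 10 genes, from the fit over all tested genes (dark grey circles) and on the scale of the background-limited genes (green diamonds; open for Atf4, which is not in that set). Dashed lines and bands give the median and the middle 50% of the 2606 background-limited genes in each fit, and Calr and Hsp90b1 lie below the band in both.

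The make-up of the set does not depend on the scale. Hspa5 supplied 42.0% ± 0.516 of the summed counts of the 10 genes in HFD+MGIG and 42.1% ± 2.45 in HFD (mean ± SD, n = 3 each), which differ by less than the spread of either group. Calr supplied 7.77%, 7.21% and 8.40% in HFD+MGIG 1, 2 and 3, against 9.56%, 9.48% and 9.34% in HFD 1, 2 and 3, lower in every HFD+MGIG library. Pdia3 supplied 14.9% to 16.9% in HFD+MGIG, against 13.5% to 14.8% in HFD, and Ddit3 0.767%, 0.886% and 0.898% in HFD+MGIG against 0.734%, 0.610% and 0.676% in HFD, both higher in every HFD+MGIG library. The shares of the other 7 genes overlapped between the groups. No rate of such separation was computed for shares of other genes. In level on the background-limited scale, 17% of the background-limited genes were lower without overlap and 16.8% higher. The background bound of Ddit3 was 40.4% of its HFD+MGIG level, and the part of background in its share was not tested.

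Per kb of exon, the 10 genes kept nearly the same order in both groups. Hspa5 stood highest, at 321 ± 119 CPM per kb in HFD+MGIG and 556 ± 77.1 CPM per kb in HFD (mean ± SD, n = 3 each), followed by Pdia3 at 165 ± 66.4 CPM per kb in HFD+MGIG and 249 ± 9.33 CPM per kb in HFD. Ddit3 was lowest in both, at 15.9 ± 5.28 CPM per kb in HFD+MGIG and 21.8 ± 1.99 CPM per kb in HFD. In HFD the order between them was Calr, Hsp90b1, Atf4, Herpud1, Xbp1, Pdia4 and Dnajb9, and the library ranges of neighbours overlapped for Calr with Hsp90b1 and for Pdia4 with Dnajb9. In HFD+MGIG Atf4 came before Hsp90b1, and the ranges of all neighbours overlapped except those of Dnajb9 and Ddit3. Within each of the 3 HFD+MGIG libraries, however, Hspa5 was above Pdia3.

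By the Pearson correlation of log2 level on the background-limited scale over the 6 libraries, the genes most like Hspa5 were Rp2 (0.984), Ddx3y (0.980) and Tgfbr2 (0.970). Those most like Ddit3 were Lpxn (0.953), Clta (0.940) and Plin2 (0.936), the last encoding a coat protein of lipid droplets. These are the highest correlations among the background-limited genes, over 6 libraries that share their scaling, and are given as a description.

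The rest of the pathway was read from 5 lists with 101 genes, of which 98 were tested. Over all tested genes 42 were lower and 3 higher in edgeR, with a median log2 fold change of −0.92, beside 0.38 for all tested genes and −0.91 for the background-limited genes. In that fit 17.8% of all tested genes were called lower and 42.9% higher, and of the background-limited genes 43.1% and 2.11%. On the background-limited scale 46 of the 101 could be read, and 2 were lower, 1 higher and the median was 0.02. There 6.25% of the background-limited genes were called lower and 4.45% higher. The counts of each list below stand beside these same shares. Ppp1r15b, the constitutive phosphatase subunit (CReP) that reverses eIF2-alpha phosphorylation, was lower (125, 52.8 and 108 CPM in HFD+MGIG 1, 2 and 3, against 211, 243 and 260 CPM in HFD 1, 2 and 3), at −1.60 in log2 over all tested genes and −0.67 when scaled by the background-limited genes (SE 0.146, edgeR adjusted p = 0.0236). Nupr1, a stress-induced chromatin factor downstream of ATF4, was higher on that scale alone (0.71, SE 0.181, edgeR adjusted p = 0.0406), while its CPM overlapped, at 70.1, 52.4 and 65.2 in HFD+MGIG and 71.6, 61.6 and 54.3 in HFD, and its log2 fold change was −0.29 over all tested genes. Srpr, the alpha subunit of the signal recognition particle receptor, was lower on both scales (75.4, 37.9 and 57.1 CPM in HFD+MGIG against 137, 137 and 141 CPM in HFD; −1.56 and −0.61, edgeR adjusted p = 0.00464 and 0.0215). The calls on that scale fell to 0 in either direction without HFD 1, HFD 2, HFD 3 or HFD+MGIG 3. In those fits 2.07%, 2.11%, 3.53% and 4.3% of the 2606 background-limited genes were lower and 0.46%, 0.729%, 0.652% and 2.72% higher. Without HFD+MGIG 1 there was 1 lower and 1 higher, beside 3.38% and 4.07% of the 2606.

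**Figure D4:**
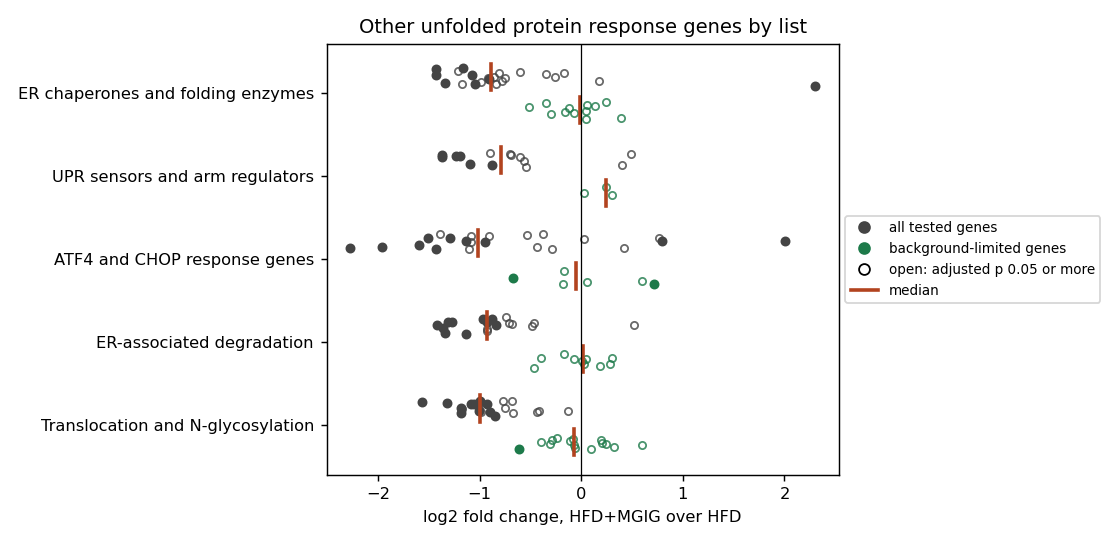
Log2 fold changes of HFD+MGIG over HFD for the genes of the 5 lists, from the fit over all tested genes (grey) and on the background-limited scale (green), with filled points for an edgeR adjusted p under 0.05 and brown-red bars for medians. The list medians run from −1.01 to −0.79 in grey and from −0.07 to 0.25 in green, where Ppp1r15b, Nupr1 and Srpr are the filled points.

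Among 22 other ER chaperones and folding enzymes 7 were lower and 1 higher over all tested genes (median log2 fold change −0.88). Those with the smallest p were Pdia5, Uggt1, Dnajc10 and Creld2, with −1.43, −1.16, −1.34 and −1.07 (edgeR adjusted p = 0.00507, 0.00932, 0.0145 and 0.0216). Uggt1, the glucosyltransferase that returns misfolded glycoproteins to calreticulin, had 53.5, 49.7 and 54.8 CPM in HFD+MGIG against 77.7, 101 and 104 CPM in HFD. Its background bound in HFD+MGIG, however, was 82.3 CPM, above its level. With the factors of the background-limited genes Uggt1 had −0.0853 (edgeR adjusted p = 0.802). The 1 higher gene, Clgn, a testis homologue of calnexin, averaged 2.22 CPM in HFD+MGIG and 0.335 CPM in HFD. Its background bound in HFD+MGIG was 25.8 CPM. Scaled by the background-limited genes, 0 of 12 in the list were called by edgeR and 1 had an unadjusted p under 0.05, with a median of −0.01.

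Among 14 sensors and regulators 6 were lower and 0 higher over all tested genes (median log2 fold change −0.79). Eif2ak3, which encodes the sensor PERK, had 17.4, 6.77 and 14.9 CPM in HFD+MGIG against 31.4, 26.5 and 27.9 CPM in HFD (−1.37, edgeR adjusted p = 0.00664). The groups were apart, and every HFD+MGIG value lay below the mean background bound of 38.6 CPM. Mbtps1, the protease that cuts ATF6, Eif2ak1, the haem-regulated eIF2-alpha kinase, and Atf6 had −1.24, −1.19 and −1.09 (edgeR adjusted p = 0.00677, 0.0116 and 0.0271). Their background bounds in HFD+MGIG, 67.5, 36.3 and 59.1 CPM, were near or above their means of 31.2, 36.0 and 65.6 CPM. With the factors of the background-limited genes Atf6 had −0.11 (edgeR adjusted p = 0.657). Of this list 3 genes could be read on the background-limited scale, and 0 were called, with 0 at an unadjusted p under 0.05 in edgeR.

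Among 24 genes of the ATF4 and CHOP response, 22 of them tested, 8 were lower and 2 higher over all tested genes (median log2 fold change −1.01). Asns, asparagine synthetase, had 7.23, 3.16 and 11.4 CPM in HFD+MGIG against 32.7, 18.4 and 22.8 CPM in HFD (−1.96, edgeR adjusted p = 0.00167). Ddit4, an inhibitor of mTORC1, had 4.10, 0.452 and 4.69 CPM in HFD+MGIG against 18.04, 13.9 and 8.76 CPM in HFD (−2.28, edgeR adjusted p = 0.00419). Both were below their background bounds in HFD+MGIG, 17.5 and 11.2 CPM. With the factors of the background-limited genes they had −1.11 and −1.52 (edgeR adjusted p = 0.0691 and 0.0936). Sesn2, an inhibitor of mTORC1 as well, had −1.13 (edgeR adjusted p = 0.0068) over all tested genes and −0.10 with those factors (edgeR adjusted p = 0.821). The 2 higher genes were Stc2 and Vldlr, at 5.59 and 19.0 CPM on average in HFD+MGIG and 1.03 and 8.67 CPM in HFD. Their background bounds were 33.1 and 64.5 CPM.

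In ER-associated degradation 10 of 18 tested genes were lower and 0 higher over all tested genes (median log2 fold change −0.93). Nploc4, Edem3 and Syvn1 had −1.42, −1.27 and −1.34 (edgeR adjusted p = 0.00487, 0.00614 and 0.00872). Syvn1 encodes HRD1, the ubiquitin ligase that Herpud1 joins. It had 18.6, 6.77 and 13.3 CPM in HFD+MGIG against 26.9, 26.7 and 29.3 CPM in HFD. Its HFD+MGIG levels were below its background bound of 31.1 CPM there. Of 10 in the list that could be read on the other scale, edgeR called 0, with 2 at an unadjusted p under 0.05. In translocation and N-glycosylation 11 of 22 were lower and 0 higher over all tested genes (median −0.99), among them Stt3b, Srp68 and Spcs3 with −1.32, −0.998 and −1.18 (edgeR adjusted p = 0.0187, 0.0243 and 0.025), and on the background-limited scale 1 of 15 was lower, Srpr.

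Markers of other cells differed between the groups as well, and secretory cells are rich in ER genes. The 15 macrophage markers summed to 7153 to 18092 CPM in HFD+MGIG and 16483 to 18539 CPM in HFD, with 0 called in edgeR over all tested genes (2 at an unadjusted p under 0.05) and 3 called lower by DESeq2 and 5 by limma voom. Their median log2 fold change was −0.65 in that fit and 0.29 on the background-limited scale. There 0 of 14 were called in edgeR and 5 had an unadjusted p under 0.05. With those factors applied to all tested genes 3 of 15 were higher and 0 lower. That fit called 50.1% of all tested genes higher and 1.82% lower. Of the 2606 background-limited genes it called 185 higher and 215 lower. Without those factors, edgeR called 17.8% of all tested genes lower and 42.9% higher. In the fit of the background-limited genes alone these shares were 6.25% and 4.45%. The edgeR counts of markers in this paragraph stand beside these shares. Adgre1 and Itgam, which encode F4/80 and CD11b, had log2 fold changes of −1.13 and −1.32 over all tested genes (edgeR adjusted p = 0.0734 and 0.0545). The 14 endothelial markers summed to 615 to 1168 CPM in HFD+MGIG and 2998 to 3416 CPM in HFD, and 14 of 14 were lower, as were 8 of 9 on the background-limited scale. Of these 8, Plvap and Esam had bounds of 6.98% and 16.7% of their HFD+MGIG levels. For Pecam1, Tek, Eng, Ptprb, Cdh5 and Tie1 the bounds were 26.5%, 58.6%, 68.8%, 92.3%, 128% and 136% of those levels. Like Ddit3, they passed the limit of that set through the HFD libraries. The 12 fibroblast and 12 adipocyte markers summed to 2706 to 4519 and 1735 to 2593 CPM in HFD+MGIG, and to 5494 to 9196 and 4128 to 6611 CPM in HFD, with 6 and 11 lower. The most abundant of each list weighed heavily in these sums. They were Gsn, at 2087 CPM on average in HFD+MGIG and 3769 CPM in HFD, and Fabp4, at 1400 and 3268 CPM. Dcn was the 1 fibroblast marker with a fold change above 0 in that fit, at 993 CPM in HFD+MGIG and 802 CPM in HFD. Scaled by the background-limited genes, 3 of 8 fibroblast and 1 of 6 adipocyte markers were lower. The 3 were Col1a1, Col1a2 and Col3a1, with bounds of 69.0%, 58.1% and 28.5% of their HFD+MGIG levels. They too passed the limit through the HFD libraries. The adipocyte marker was Car3, with a bound of 8.37%. With the factors of the background-limited genes applied to all tested genes, 3 of 12 fibroblast markers were lower and 1, Dcn, was higher (log2 fold change 1.08, edgeR adjusted p = 0.0348). The 12 plasma and B cell markers summed to 314 to 431 CPM in HFD+MGIG and 451 to 477 CPM in HFD, with Ighm the most abundant and Mzb1 at 0 in HFD+MGIG 1. The lower sum came with Sdc1, at 40.2, 20.3 and 49.1 CPM in HFD+MGIG against 163, 154 and 107 CPM in HFD, the 1 marker of this list called lower in edgeR. Without Sdc1 the other 11 summed to 265 to 410 CPM in HFD+MGIG and 297 to 368 CPM in HFD, which overlap. Ms4a1 and Pax5 were called higher, at 34.4 and 3.39 CPM on average in HFD+MGIG, under background bounds of 39.6 and 56.7 CPM. Both were highest in HFD+MGIG 2, and neither passed the threshold without that library (edgeR adjusted p = 0.0557 and 0.0981). No list had a marker at 0 in all libraries of a group. The part of these cells in the levels of the ER genes was not tested, and in bulk libraries fewer cells of a type cannot be told apart from less RNA per cell.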

How the data were processed

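RNA sequencing covered 3 HFD+MGIG and 3 HFD libraries. Per the labels' protocols, RNA was extracted with TRIzol and 10 ng went into SMART-Seq v4 libraries, in which cDNA is amplified. Estimated counts per Ensembl gene ID were deposited by the authors as 1 table. Per the submitters' processing notes, fastp, HISAT2, StringTie and mm10 were used; the labels state no version, counting program or strand. The deposited values were rounded to integers. Symbols, exons and positions came from GENCODE M21 (51884 of 57180 IDs).

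Groups were compared with the quasi-likelihood test of edgeR 4.0.16 in R 4.3.3 (robust, group only, TMM, filterByExpr) on all 6 libraries, adjusted by Benjamini-Hochberg over all tested genes. SE is the log2 fold change over the square root of the F statistic. Alternatives were RLE factors or library totals, no filter, at least 5 CPM in 3 libraries, DESeq2 1.42.0, limma 3.58.1 voom with quality weights, a replicate block, each library left out, and the background-limited genes, also with the median background subtracted. The fit was checked on simulated counts. The genes, lists and alternatives were chosen with earlier results of these data known; the factors of the background-limited genes for all genes, and DESeq2 and left-out libraries on that scale, were added after the data were seen. Named were the 10 genes, up to 4 genes with the smallest p and at least 10 CPM in the higher group per list, Adgre1 and Itgam, except 1 gene that is not reported here; other genes were named after their values were seen.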

Additional observations from a re-analysis of the deposited data

How the results depend on the processing

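Of the 10 genes 3 were lower in edgeR over all tested genes, 4 with RLE factors and 2 with the replicate block, which kept Calr, lost Hsp90b1 (edgeR adjusted p = 0.0568) and Herpud1 (0.0591) and gained Pdia4 (0.0483); 9 were lower with DESeq2, 10 with limma voom, 6 with no filter, 1 with library totals, and 0 with at least 5 CPM in 3 libraries, with the background-limited genes, with their median background subtracted, or with their factors applied to all tested genes. Leaving out 1 library gave 0 to 9. Of all genes tested in the same fits, 17.2% were lower with RLE factors, 18.7% with the block, 10.9% with no filter, 11.9% with at least 5 CPM, 4.37% with the median background subtracted, and 2530 of 23055 with library totals. None of the 10 was called higher under any of these. The sign differed from that over all tested genes for Pdia3, at 0.0557 on the background-limited scale, 0.0551 with those factors and 0.17 with the median background subtracted, for Ddit3 at 0.21, 0.21 and 0.16 in the same order, for Atf4 at 0.0845 with those factors, and for Dnajb9 at 0.0382 with the median background subtracted but not on that scale without subtraction (−0.02). Over the 9 settings on that scale Pdia3 ran from −0.05 to 0.17, Pdia4 from −0.25 to 0.03 and Dnajb9 from −0.23 to 0.10, so their sign there is not fixed. Of the 98 other genes tested 42 were lower and 3 higher. These counts were 45 and 5 with RLE factors, 26 and 6 with library totals, 74 and 6 with limma voom and 48 and 2 with the replicate block. With the factors of the background-limited genes they were 3 and 15. They were 60 and 2 of 101 with DESeq2, 49 and 1 of 101 with no filter, and 19 and 4 of 93 with at least 5 CPM. Of all genes tested 43.9% were higher with RLE factors, 45.0% with library totals, 42.7% with the block, 40.6% with no filter and 30.8% with at least 5 CPM. Of the 46 genes read on the background-limited scale 2 were lower and 1 higher, 2 and 0 with the median background subtracted, and 4 and 2 with DESeq2. Of the 2606 genes of that set 6.25%, 4.37% and 8.79% were lower in these fits, and 4.45%, 3.76% and 7.14% higher. Leaving out 1 library gave 15 to 64 lower and 0 to 3 higher over all tested genes, where 8.31% to 22.6% of all tested genes were lower and 40.3% to 42.9% higher. On the background-limited scale it gave 0 to 2 lower and 0 to 1 higher, where 2.07% to 7.25% of the 2606 genes were lower and 0.46% to 5.91% higher. The cause was not tested.

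It is not known whether the replicate numbers of the labels pair the libraries. Over all tested genes the correlation of deviations from the group means was 0.048, 0.26 and 0.0792 for numbers 1, 2 and 3. Between libraries of different numbers it ran from −0.23 to 0.17. Over the background-limited genes it was −0.13, 0.12 and 0.22 for numbers 1, 2 and 3, and −0.31 to 0.25 between different numbers. These few correlations cannot decide on pairing, so the block result is given as an alternative only. Depth was lower in every HFD+MGIG library than in every HFD library, and its part in these results was not tested.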
